A study of Mus musculus with 12 samples.

Results

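The response described here is that of mouse liver to 24 h without food when hepatocytes lack LAMP2A. It was read as the log2 difference between 3 starved knock-out (KO) mice (replicates S5, S6 and S7) and 3 fed KO mice (replicates F5, F6 and F8), 6 of the 12 arrays of the series. Every one of the 20719 genes with a symbol was compared, and 212 of them passed the test. The other 6 arrays held fed and starved wild-type (WT) mice, 3 of each. KO mice had loxP sites around exon 9A of Lamp2 and the Albumin-Cre transgene on a C57BL/6 background, and several lines were bred. The albumin promoter is active in hepatocytes, and whether other liver cells kept exon 9A was not measured here. All mice were given standard chow and water without limit, and only the food was withdrawn from the starved ones. Each array is 1 mouse. Their age and sex are not given in the sources used here.

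When food is withdrawn, falling insulin and rising glucagon and glucocorticoids turn the liver from storing fuel to releasing it. The receptor PPAR-alpha induces fatty acid oxidation and ketone body production, FOXO1 and CREB induce gluconeogenesis, and the SREBP factors that drive cholesterol and fatty acid synthesis lose activity. LAMP2A is the lysosomal receptor of chaperone-mediated autophagy, which takes single cytosolic proteins into lysosomes and is activated by prolonged starvation, after macroautophagy.

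Lamp2 measured 12.51, 12.81 and 12.49 in the fed KO mice and 12.33, 12.56 and 12.60 in the starved KO mice, so the groups overlapped. Which exons its probe set reads is not known here, and the value checks nothing about the deletion. Of the 12 hepatocyte markers, 0 were called. Their mean level per array was 13.14 to 13.60 in fed and 13.22 to 13.53 in starved KO liver, near the top of the scale. The marker lists of T, B and natural killer cells, neutrophils, adipocytes and exocrine pancreas had mean levels between 5.35 and 6.09 in these 6 arrays. The bile duct list was the only 1 of the 10 marker lists whose means did not overlap. They were 6.31 to 6.46 in fed and 6.13 to 6.23 in starved mice. Of its 10 genes 0 were called, and the median difference was -0.11. With so few mice per group, 1 of 10 lists can separate by chance, so no bile duct shift is read from it. The sinusoidal endothelial list ran from 8.79 to 9.40 and from 8.57 to 9.11. The part of these cells in the results was not tested. In bulk tissue a lower value can come from fewer cells of a type or from less RNA per cell, and these cannot be told apart here. RMA values cannot tell a low level from none.

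Of the 212 genes called by limma at a Benjamini-Hochberg adjusted p under 0.05, 101 were higher after starvation and 111 were lower. This is 1.02% of the genes tested, 0.487% called higher and 0.536% called lower. With arrays scaled to the same median absolute deviation the split was 122 higher and 82 lower. The median difference was 1.31 for the genes that rose and -1.05 for those that fell, on the log2 scale, where 1 is a 2-fold change. At least 2-fold changes were seen in 68 rising and 62 falling genes, and at least 4-fold changes in 24 and 16. At least 8-fold changes were seen in 9 rising and 3 falling genes. The median over all genes was -0.03. Calls were few among dim genes, with 2 (0.029%) in the lowest tercile of levels, 48 (0.695%) in the middle tercile and 162 (2.35%) in the highest. In 1251 genes that belonged to at least 1 of 62 pathway or marker lists, 87 were called (6.95%), and 125 called genes were in no list.

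**Figure D1:**
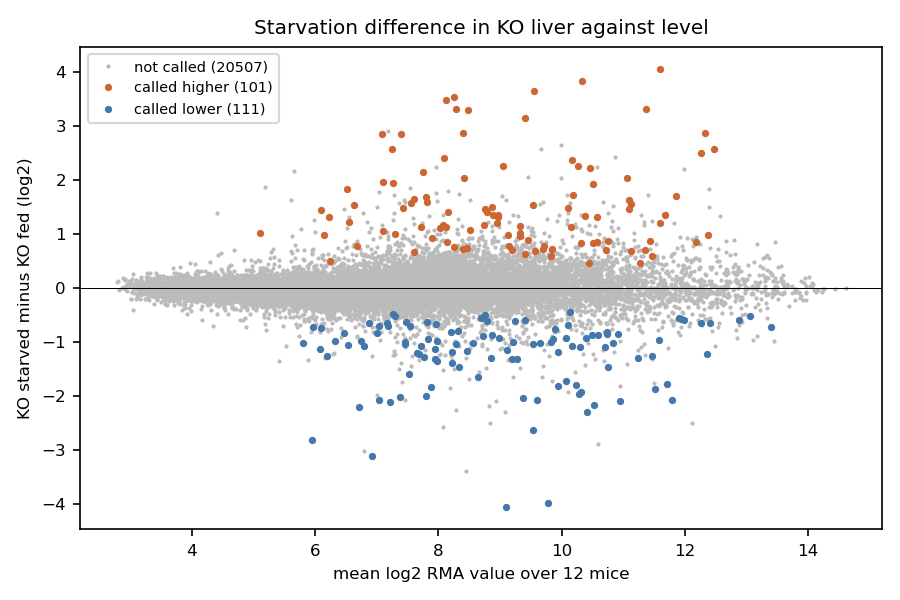
Difference between starved and fed KO liver (log2, vertical axis) against the mean log2 RMA value over all 12 mice (horizontal axis), 1 point per gene. Orange points are the 101 genes called higher, blue points the 111 called lower and grey points the rest; few called genes lie at the dim end.

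The number of calls depended on every mouse. With 1 KO mouse left out it was 45 without F5, 136 without F6, 130 without F8, 81 without S5, 51 without S6 and 71 without S7. Leaving out a WT mouse, which adds to the estimate of the spread only, gave 167 to 258 calls, and 344 without WT starved replicate 3. In all 6 fits that left out a KO mouse 40 genes were called, 22 that rose and 18 that fell. In contrast, 62 of the 212 were called in 0 of these 6 fits. All 212 kept their direction, and the difference of a called gene moved by at most 1.33 times when a mouse was left out. In the fed group F6 had the widest spread of values (SD 2.15, against 2.08 and 2.03), and in the starved group S5 had the narrowest (SD 2.06, against 2.13 and 2.14). The mean of 68 small nucleolar RNA genes was 7.45, 6.89 and 7.82 in F5, F6 and F8 and 7.77, 7.14 and 7.14 in S5, S6 and S7, lower in the 3 of these 6 arrays with the widest spread. In WT the widest spread was that of starved S3, starved S4 and fed F1 (SD 2.15, 2.15 and 2.13). These arrays also had the lowest WT means, 6.75, 6.85 and 6.47. Among the remaining WT arrays the order was not kept: starved replicate 3 had an SD of 2.003 and a mean of 6.90. Fed F4, with an SD of 2.07, had a mean of 7.42. Without F6 and S5 together 73 genes were called. Genes said below to hold with any mouse left out are among the 40, and the words refer to the KO mice only.

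Several of the strongest rises were in genes of fatty acid oxidation. The cytochrome P450 enzymes Cyp4a14, Cyp4a10, Cyp4a31 and Cyp4a32, which hydroxylate fatty acids at the omega end and are classic PPAR-alpha targets, all rose and held with any mouse left out. Cyp4a14 measured 10.68, 9.86 and 9.15 in fed mice F5, F6 and F8, and 13.84, 14.02 and 14.01 in starved mice S5, S6 and S7. The fed values were scattered and the starved ones close together, with more than 3 log2 units between the groups. The rise was 16.7-fold (difference 4.06 with an SE of 0.39 and 3 mice per group, limma adjusted p = 0.00112). Cyp4a10 went from 10.92, 11.16 and 10.75 to 13.68, 13.87 and 13.89, a difference of 2.87 (SE 0.22, adjusted p = 0.000706). Cyp4a31 differed by 3.32 and Cyp4a32 by 2.57. The 4 genes lie next to each other on chromosome 4 and are alike in sequence, so probes may read more than 1 of them. The Cyp4 list had 4 of 13 genes higher, against 0.487% of all genes. Its other 9 measured members did not pass. They included Cyp4a12a, a male-typical arachidonic acid hydroxylase (-0.93), and Cyp4f14, a leukotriene hydroxylase (-1.35), and the list median was 0.03.

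Of 14 acyl-CoA thioesterases, which release free fatty acids from coenzyme A, 3 rose and 0 fell, against 0.487% of all genes called higher. The median was 0.36. Acot3 stood at 6.39, 7.17 and 6.26 in fed and at 9.66, 10.40 and 10.19 in starved mice, a difference of 3.48 (SE 0.45, adjusted p = 0.00503). Its neighbours Acot1 and Acot4 differed by 3.32 and 2.26. All values of these genes in starved mice lay above those in fed mice. Acot3 held with any mouse left out. Without F5, S5, S6 or S7 only 1 member of the list was called. The mitochondrial Acot2, listed beside them, stood 2.64 higher and did not pass (adjusted p = 0.0605). Cross-hybridization among these similar genes was not tested.

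All 20 genes of the carnitine shuttle and mitochondrial beta-oxidation had a positive difference, with a median of 0.70 against -0.03 for all genes. The test passed 3, a share to be read against the 0.487% of all genes called higher. Slc22a5, the plasma membrane carnitine transporter, rose by 2.04 (SE 0.42, adjusted p = 0.0476), from 7.22, 7.94 and 7.11 to 9.15, 9.56 and 9.66. The isomerase Eci1 and the reductase Decr1, which prepare unsaturated fatty acids for oxidation, rose by 0.70 and 0.46. None of the 3 was called in any fit that left out a KO mouse. Cpt1a, the gate of mitochondrial fatty acid entry, measured 10.19, 11.39 and 9.95 in fed and 11.76, 12.32 and 12.62 in starved mice. Its groups did not overlap, but the difference of 1.73 (SE 0.50) had an adjusted p of 0.177. Among 18 peroxisomal genes Eci2 (0.86) and the thiolase Acaa1a (0.97) rose, and Nudt7, a coenzyme A diphosphatase, fell by 1.79. Eci2 and Nudt7 held with any mouse left out, and Acaa1a was called in 0 of those fits. Ehhadh, the peroxisomal bifunctional enzyme, stood 2.21 higher without passing (adjusted p = 0.104).

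Of 13 genes of ketone body synthesis and monocarboxylate transport, Slc16a5 was the only one called, where 1.02% of all genes were called. This member of the monocarboxylate transporter family went from 6.15, 6.29 and 6.19 in fed to 9.87, 9.51 and 9.85 in starved mice. The groups were far apart and narrow, and the difference was 3.53 (SE 0.40, adjusted p = 0.00235), with any mouse left out as well.

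**Figure D2:**
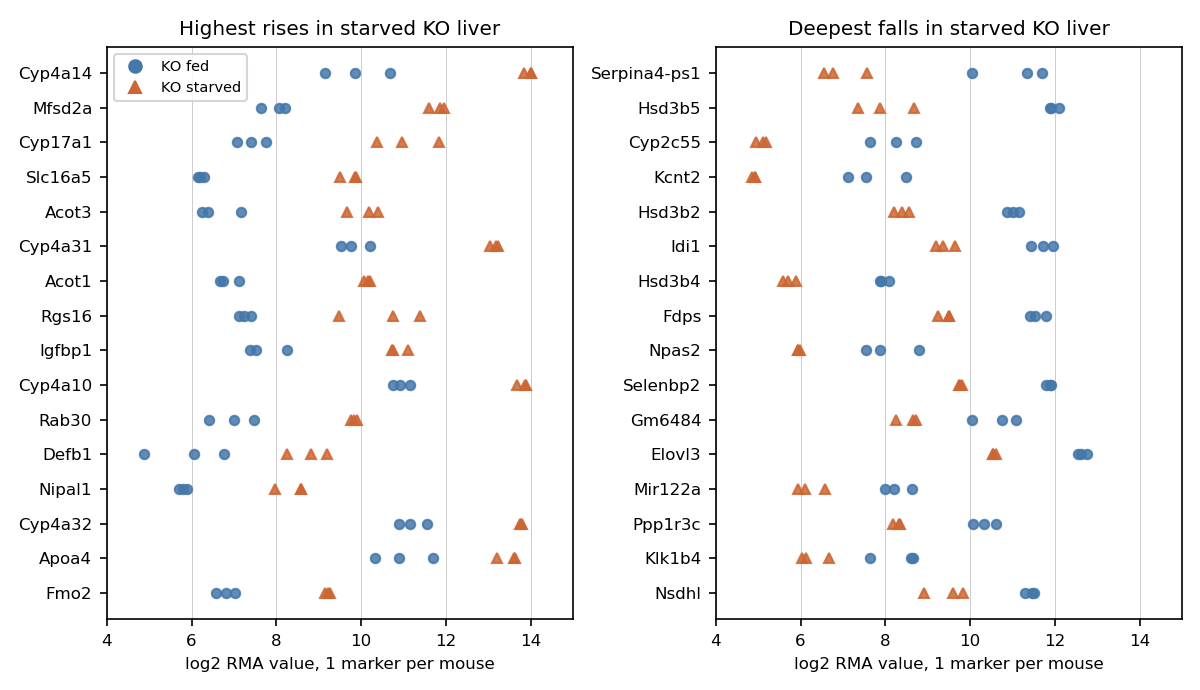
Log2 RMA values of the 16 named genes with the highest rises (left) and the 16 with the deepest falls (right), 1 marker per KO mouse; blue circles are the 3 fed and orange triangles the 3 starved mice. The genes were chosen among those whose fed and starved mice lie apart; in Cyp4a14, for example, the gap runs between the highest fed value of 10.68 and the lowest starved value of 13.84.

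Genes that handle stored and circulating lipid also rose. Mfsd2a, a transporter of lysophosphatidylcholine, measured 7.64, 8.21 and 8.07 in fed and 11.61, 11.96 and 11.87 in starved mice. It rose 14.3-fold (difference 3.84, SE 0.32, adjusted p = 0.000706), with any mouse left out as well. In the list of 22 lipid droplet proteins and lipases 2 rose, against 0.487% of all genes called higher, and the median was 0.09. Plin5, which ties droplets to mitochondria, rose by 1.34 and held with any mouse left out. Pnpla2, the adipose triglyceride lipase, rose by 1.54 and was called only without F6 among those fits. Cidec, a droplet fusion protein, stood 2.23 higher with groups apart, and its adjusted p was 0.0771. Lpin1, a phosphatidate phosphatase and coactivator, stood 2.06 higher with an adjusted p of 0.233.

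Of 21 apolipoprotein and lipoprotein genes, 2 rose and 1 fell, where 1.02% of all genes were called in either direction. Apoa4, an apolipoprotein of triglyceride-rich particles, went from 10.33, 11.69 and 10.90 to 13.63, 13.60 and 13.20, a rise of 2.50 (SE 0.36, adjusted p = 0.00873). Angptl4, which inhibits lipoprotein lipase in fasting, rose by 1.72. Angptl8, listed under the older symbol Gm6484 and known as the fed-state partner in that control, fell by 2.08. It measured 11.08, 10.03 and 10.76 in fed and 8.66, 8.73 and 8.26 in starved mice, with no overlap. Without S6 the count of this list was 0. The structural apolipoproteins did not pass, with differences of 0.04 for Apoa1, 0.39 for Apob and 0.03 for Apoe.

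Genes on both stretches of cholesterol synthesis fell. From mevalonate to squalene, 7 of 10 genes fell and 0 rose (median -1.24), and from squalene to cholesterol 3 of 12 fell (median -1.23), against 0.536% of all genes called lower. Idi1, the isopentenyl diphosphate isomerase, measured 11.95, 11.44 and 11.73 in fed and 9.20, 9.37 and 9.64 in starved mice. It fell to a level 2.30 lower (SE 0.40, adjusted p = 0.0206). Fdps, the farnesyl diphosphate synthase, went from 11.79, 11.42 and 11.52 to 9.23, 9.50 and 9.49 (difference -2.17, SE 0.35). Fed and starved values of these 2 genes were separated by more than 1.5 log2 units. Nsdhl, a sterol dehydrogenase, differed by -1.96, the cyclase Lss by -1.40 and the reductase Dhcr7, which makes cholesterol in the last step, by -1.32. Mevalonate kinase Mvk and its chromosome 5 neighbour Mmab, a cobalamin enzyme, differed by -1.02 and -0.94. Mvk and Nsdhl were called in 0 of the 6 fits without 1 KO mouse, and Idi1 only in that without F6.

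Squalene epoxidase, Sqle, was not among the calls. It stood 2.19 lower (SE 0.55, adjusted p = 0.102), with groups that did not overlap. Starved mouse S5 held the lowest value of Sqle, Hmgcs1, Lss and Nsdhl in this comparison. Mvd, the mevalonate decarboxylase (-1.29), was the only cholesterol gene that held with any mouse left out. The counts of the lists fell to 1 of 10 without F5 and to 0 of 12 without F5, F6, S5 or S6. Insig1, which holds back SREBP activation, stood 1.76 lower and did not pass.

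Fatty acid synthesis had 4 of 20 genes lower and 0 higher, against 0.536% of all genes called lower, and its median was -0.39. The elongase Elovl3 measured 12.62, 12.77 and 12.54 in fed and 10.61, 10.55 and 10.54 in starved mice, and the difference was -2.07 (SE 0.24, adjusted p = 0.0024). Srebf1, the transcription factor that drives lipogenesis, fell by 1.48. Aacs and Acss2, which activate acetoacetate and acetate in the cytosol, fell by 1.36 and 0.94. Elovl3 and Aacs held with any mouse left out, and 2 genes of the list were called without F5, F8, S5 or S7. The lipogenic enzymes themselves did not pass. Fasn, the fatty acid synthase, stood 1.04 lower and Scd1, the stearoyl-CoA desaturase, 1.08 lower, and the Scd1 groups overlapped. Thrsp, a lipogenic regulator, measured 10.23, 8.59 and 10.33 in fed and 7.33, 7.40 and 6.90 in starved mice. Its groups were apart, with fed mouse F6 well below the other fed mice, and the adjusted p was 0.0821.

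For carbohydrate genes, too, the calls are to be read beside the 1.02% of all genes called in either direction. Ppp1r3c, a subunit that brings protein phosphatase 1 to glycogen and promotes glycogen synthesis, fell from 10.32, 10.61 and 10.07 to 8.19, 8.36 and 8.32 (difference -2.04, SE 0.26, adjusted p = 0.00446). It held with any mouse left out and was the only one of 14 glycogen genes called. Of 19 gluconeogenic genes Gpt2, the mitochondrial alanine aminotransferase, rose by 1.46 (adjusted p = 0.0428). Of the fits without 1 KO mouse, only that without F6 called it. The median of that list was 0.59. Pck1, the key enzyme of gluconeogenesis, was 10.93, 12.61 and 10.96 in fed and 12.61, 13.15 and 13.21 in starved mice. Fed mouse F6 reached the level of starved mouse S5 at this precision, and the adjusted p was 0.259. Asl, the argininosuccinate lyase of the urea cycle, rose by 1.36 and was the only 1 of 13 urea cycle genes called. Of 34 genes of amino acid breakdown 0 passed, with differences between -0.65 and 0.94.

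Secreted regulators and insulin-controlled genes held several calls. Igfbp1, an IGF-binding protein that insulin represses, rose 8.86-fold, from 7.37, 8.24 and 7.53 to 11.10, 10.76 and 10.72 (difference 3.15, SE 0.57, adjusted p = 0.0249). Igfbp1 was called only without F6 among the fits that left out a KO mouse. Its relative Igfbp2 rose by 1.64. The fasting hormone Fgf21 measured 5.75, 6.05 and 6.16 in fed and 6.97, 7.36 and 7.27 in starved mice, a rise of 1.22 (SE 0.17, adjusted p = 0.00687). Gadd45b, a stress gene, rose by 2.15 with starved values of 8.91, 8.91 and 8.86. Of 24 hepatokines and secreted regulators 4 rose and 1 fell, where 1.02% of all genes were called. Without F5, S6 or S7 the count was 1. Fgf21 was the one that held with any mouse left out. In the growth hormone and IGF list Igf1 itself differed by 0.03. Foxo1, the insulin-controlled factor, stood 0.80 higher, Insr, the insulin receptor, 0.85 higher and Irs2, its docking protein, 0.40 higher, and none of them passed.

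Rgs16, which shortens signalling through G proteins, rose from 7.23, 7.39 and 7.13 to 9.47, 11.40 and 10.75. Starved mouse S5 was more than 1 log2 unit below the other starved mice, yet the gene held with any mouse left out (difference 3.29, SE 0.37, adjusted p = 0.0024). The other 12 measured RGS genes did not pass and lay between -0.36 and 0.88.

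Clock genes changed in both directions. Of 24 measured genes of the core clock and its output, 5 rose and 3 fell, where 1.02% of all genes were called. The median was 0.50. Npas2 and Arntl, which form activating dimers of the clock, fell by 2.11 and 1.05. Npas2 measured 7.88, 8.80 and 7.53 in fed and 5.95, 5.99 and 5.93 in starved mice, and Arntl 8.57, 8.98 and 8.41 against 7.60, 7.53 and 7.69. Nfil3, a repressor of the D-box promoter element, fell by 1.17. The D-box activators Dbp and Tef rose by 1.64 and 1.11. Dbp went from 6.89, 6.88 and 7.09 to 8.32, 9.05 and 8.41. The clock repressors also rose, Per1 by 1.57, Nr1d2 by 1.47 and Ciart, listed under the older symbol Gm129, by 2.86. Among these 8 genes only Dbp held with any mouse left out (SE 0.21, adjusted p = 0.0051 with all mice), and the count of the list was 1 without F5 or S6 and 5 without F6 or F8. Clock, the other partner of Arntl, differed by 0.02. The time of day at which each mouse was killed is not stated in the labels, and its part in these values was not tested.

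The E-box CACGTG, the element through which the Arntl dimers act, was searched on both strands in the promoter windows of RefSeq, which run from 250 bases before to 50 after a gene's start site in the build GRCm38.p6. Of the 101 genes that rose, 76 had a window, and 15 of these (19.7%) held the letters. The share was 6.67% (6 of 90) among the genes that fell and 8.09% among all 27025 genes with a window. That last set was not limited to tested genes or matched for level, and the shares were not tested. Among the named genes that rose, Per1, Tef, Fgf21, Bnip3, Gadd45b, Igfbp2, Arrdc4, Acot4, Nr1i3 and Psmd9 held it, and among those that fell, Dhcr7 and Ppp1r3c. The D-box, searched as TTATGNAA in the same windows, was held by 1.32% of the genes that rose (Per1 alone), 3.33% of those that fell and 3.99% of all genes. The sterol element TCACNCCAC was held by 1.32%, 4.44% and 1.44%, and by 0 of the 8 called cholesterol synthesis genes with a window. The 250 upstream bases of 3 of them follow, 5′ to 3′ on the gene's strand, with CACGTG in capitals, to show where it lies in a clock gene, a fasting hormone and a mitophagy gene. A match is a description of these letters and shows no binding.
Per1, chr11:69098699-69098948, plus strand, GRCm38.p6: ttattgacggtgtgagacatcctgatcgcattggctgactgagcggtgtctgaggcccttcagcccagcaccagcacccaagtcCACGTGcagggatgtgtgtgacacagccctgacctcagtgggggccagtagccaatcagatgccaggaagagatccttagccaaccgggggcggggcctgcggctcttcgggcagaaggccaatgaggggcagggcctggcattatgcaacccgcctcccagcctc
Fgf21, chr7:45615491-45615740, minus strand, GRCm38.p6: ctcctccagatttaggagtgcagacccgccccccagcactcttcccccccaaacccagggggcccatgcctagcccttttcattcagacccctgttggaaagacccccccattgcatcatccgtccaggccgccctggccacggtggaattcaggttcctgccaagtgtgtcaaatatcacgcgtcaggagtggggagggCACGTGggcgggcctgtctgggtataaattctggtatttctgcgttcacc
Bnip3, chr7:138909507-138909756, minus strand, GRCm38.p6: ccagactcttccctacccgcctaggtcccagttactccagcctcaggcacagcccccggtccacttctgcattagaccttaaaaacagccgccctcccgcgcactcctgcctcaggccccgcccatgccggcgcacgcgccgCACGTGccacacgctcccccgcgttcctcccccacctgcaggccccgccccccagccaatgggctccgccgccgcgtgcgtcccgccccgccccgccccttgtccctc

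Genes with sex-typical expression in mouse liver moved as well. Of 22 male-biased genes 5 fell and 0 rose (median -0.62), and of 24 female-biased genes 4 rose and 0 fell (median 0.18). Over all genes 0.536% were called lower and 0.487% higher. Hsd3b5, a male-typical steroid reductase, fell from 12.09, 11.91 and 11.88 to 8.66, 7.88 and 7.35. That is a difference of -3.99 (SE 0.52, adjusted p = 0.00515), the second deepest fall of all genes called. Selenbp2, a selenium-binding protein, measured 11.92, 11.88 and 11.79 in fed and 9.81, 9.75 and 9.74 in starved mice. Other male-biased genes did not pass, such as the urinary proteins Mup1 (-0.08) and Mup20 (-0.23) and the hydroxylase Cyp2d9 (0.25). On the female-biased side Cyp17a1, a steroid hydroxylase and lyase, rose by 3.65, from 7.77, 7.06 and 7.40 to 11.83, 10.98 and 10.37. Of the fits without 1 KO mouse, only that without S7 called it. Nipal1, a magnesium transporter, rose by 2.57, and Fmo2, a flavin monooxygenase, by 2.41. The female-typical Cyp2b13, Cyp3a41a and Sult2a1 differed by 0.18, -0.15 and -0.12. Hsd3b5, Elovl3, Nudt7, Acot3 and Nipal1 held with any mouse left out. Without F5, S6 or S7 the male-biased count was 3, and without F5, F8, S5 or S6 the female-biased count was 2.

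Of the 7 measured genes of the Hsd3b family, whose members act on steroids, 4 fell (median -1.29), against 0.536% of all genes called lower. These 4 lie next to each other on chromosome 3. Besides Hsd3b5 these were Hsd3b2 (-2.63), Hsd3b4 (-2.22) and Hsd3b3 (-1.29). Hsd3b4 measured 8.08, 7.87 and 7.89 in fed and 5.59, 5.89 and 5.71 in starved mice. Hsd3b1 (0.12), Hsd3b6 (-0.69) and Hsd3b7 (-0.15) did not pass. The genes are close relatives, and how far a probe set reads its neighbours was not tested.

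Of 21 pairs of called genes with at most 2 tested genes between them on a chromosome, 19 moved the same way. Besides the Cyp4a, Acot and Hsd3b clusters they included the glutathione transferases Gstm7, Gstm6 and Gstm3 (-1.01, -1.47 and -1.27) and the organic anion transporter genes Slc22a28 and Slc22a30 (-1.81 each). The ephrins Efna1 and Efna3, ligands of Eph receptors, differed by -1.33 and -1.09. Pairs of unlike genes were Cyp17a1 with the arsenic methyltransferase As3mt (1.02), and Por with Rhbdd2 (1.17). The pairs Dtx4 with Gm4952 and Aacs with Glt1d1 moved in opposite directions. Of the genes of these pairs, As3mt, Slc22a30, Dtx4 and Gm4952 were called in 0 of the 6 fits that left out a KO mouse. The pairs were picked by position after the calls were known.

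Drug and steroid metabolism changed gene by gene, and the calls are to be read beside the 1.02% of all genes called. Por, which gives electrons to all microsomal cytochrome P450 enzymes, rose from 8.81, 9.51 and 8.58 to 10.91, 11.25 and 11.49 (difference 2.25, SE 0.35, adjusted p = 0.0116). It was not called without F5, S6 or S7. The receptor Nr1i3, which senses xenobiotics, rose by 1.33. Of 33 genes of P450 family 2 Cyp2a22 rose by 1.96, and Cyp2c55 and Cyp2u1 fell. Cyp2c55, an arachidonic acid hydroxylase, went from 8.25, 7.64 and 8.72 to 5.18, 5.12 and 4.95, an 8.70-fold fall (difference -3.12, SE 0.44). The count of this list was 0 without F5 and 5 without F6. Of 36 conjugating enzymes Gstm6 and Gstm3 fell and Gstt2 rose by 1.51, and these 3 held with any mouse left out. Cyp8b1, which sets the cholic acid share of bile acids, rose by 2.04 (adjusted p = 0.0442). Cyp8b1 and Nr1i3 were called in 0 of the 6 fits that left out a KO mouse. Cyp7a1, the rate-limiting enzyme of bile acid synthesis, overlapped between the groups, with 9.79, 8.49 and 11.06 in fed and 10.86, 11.23 and 10.75 in starved mice.

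Some genes of protein folding and export in the endoplasmic reticulum fell. Of 24 chaperones and folding enzymes 3 fell and 0 rose (median -0.33). Among 33 genes of translocation, export and degradation 4 fell and 0 rose (median -0.38). Over all genes 0.536% were called lower. Sdf2l1, which works with the chaperone BiP, measured 11.72, 11.45 and 10.80 in fed and 9.83, 9.21 and 9.12 in starved mice, a difference of -1.93 (SE 0.35, adjusted p = 0.0242). Pdia6, a disulfide isomerase, went from 10.72, 10.90 and 10.38 to 9.60, 9.71 and 9.44 (difference -1.08, SE 0.16, adjusted p = 0.00968). The prolyl isomerase Ppib differed by -0.65, the signal peptidase subunits Spcs2 and Spcs3 by -0.82 and -0.76, and Edem2, which marks misfolded glycoproteins for disposal, by -0.60. Xbp1, the transcription factor of the unfolded protein response, differed by -0.58, with fed values of 12.46, 12.20 and 12.03 and starved values of 11.59, 11.60 and 11.74. The probe set does not tell its spliced form from the unspliced one. The most abundant chaperones did not pass, among them Hspa5, which encodes BiP (-0.27), Hsp90b1 (-0.15) and Calr (-0.09). In WT liver 0 genes of either list were called, with medians of 0.01 and -0.08. The smallest adjusted p of the interaction over all genes was 0.409, so no difference between genotypes was shown. No call of these lists held with any mouse left out. The counts were 0 of 24 without F5 or S7 and 0 of 33 without F5, S6 or S7, and the median of the chaperones ran from -0.57 to -0.08 over the 6 fits.

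The element CCAAT followed after 9 bases by CCACG, known from promoters of the unfolded protein response, was found in the RefSeq window of 10 of 48 genes of these lists (20.8%) and of 0.137% of all genes. Of the 6 called members with a window, 1 (16.7%) held it, Pdia6. The other carriers, among them Hspa5, Hsp90b1 and Calr, were not called. These lists were gathered by function, so their share says nothing about the response to starvation. Its 250 upstream bases are shown with CCAAT and CCACG in capitals and the 9 bases between them in lower case, as the one called folding gene that carries the pair.
Pdia6, chr12:17266339-17266588, plus strand, GRCm38.p6: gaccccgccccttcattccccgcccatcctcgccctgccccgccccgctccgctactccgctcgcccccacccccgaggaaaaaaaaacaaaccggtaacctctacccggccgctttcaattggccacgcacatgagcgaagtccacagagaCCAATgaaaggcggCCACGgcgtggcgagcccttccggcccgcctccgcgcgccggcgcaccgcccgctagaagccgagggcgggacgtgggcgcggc

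Calls in the degradation pathways around the deleted receptor are to be read beside the 1.02% of all genes called in either direction. Of 42 macroautophagy and mitophagy genes Bnip3 and Map1lc3b rose. Bnip3, a mitophagy receptor, measured 10.9433, 10.9994 and 10.8545 in fed and 12.1899, 12.1327 and 12.0923 in starved mice. The values within each group were almost equal, and the rise of 1.21 (SE 0.15, adjusted p = 0.00338) held with any mouse left out. Map1lc3b, which encodes the autophagosome protein LC3B, went from 10.81, 10.75 and 10.70 to 11.33, 11.50 and 11.48, a rise of 0.69. It was not called without F5, S6 or S7. Sqstm1, the cargo receptor p62, differed by 0.41 without passing. Of 17 genes of chaperone-mediated autophagy 0 were called, and their differences lay between -0.34 and 0.59 with a median of 0.05. Hspa8, the chaperone that selects its substrates, stood 0.41 higher. Of 54 lysosomal genes 0 were called (median 0.14). The protease Ctsl came nearest among those named here, with 12.11, 12.32 and 12.11 in fed and 12.71, 12.90 and 12.94 in starved mice, groups apart (adjusted p = 0.0604). Of 42 proteasome genes Psmd9, an assembly chaperone, rose by 0.76, and without F5 it was not called. The median of that list was 0.17.

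**Figure D3:**
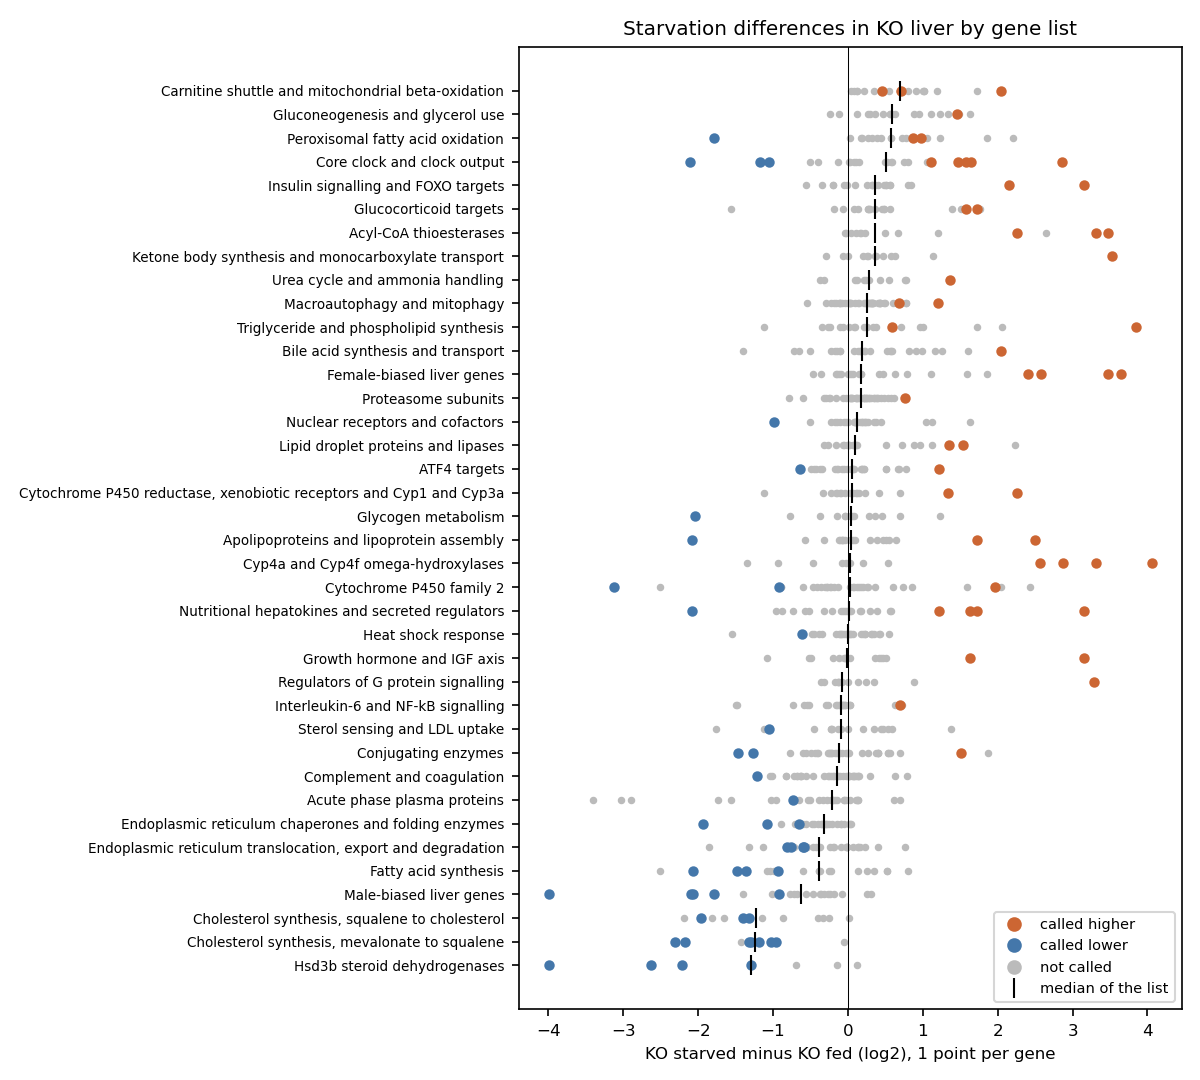
Difference between starved and fed KO liver (log2, horizontal axis) for every measured gene of the 38 pathway lists with at least 1 called gene, 1 point per gene; orange points were called higher, blue points lower, grey points were not called, and black ticks are list medians. Cholesterol synthesis and the Hsd3b family lie to the left with medians near -1.2 to -1.3, and mitochondrial beta-oxidation to the right with a median of 0.70.

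Respiratory chain and ribosomal genes held no calls, where 1.02% of all genes were called. Of 52 oxidative phosphorylation genes and of 51 cytosolic ribosomal proteins 0 were called in each list, with medians of -0.08 and 0.01, and their genes lay between -0.44 and 0.21 and between -0.23 and 0.32. Of 31 cell cycle genes 0 were called (median -0.14).

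Among inflammation genes the spread was large, and the calls are to be read beside the 1.02% of all genes called. Of 30 acute phase genes Orm1, the orosomucoid 1 gene, was the only one called, with 13.74, 13.73 and 13.61 in fed and 13.06, 12.95 and 12.87 in starved mice (difference -0.73, SE 0.14, adjusted p = 0.0364). It was not called in any fit that left out a KO mouse. Larger differences did not pass. Saa1, a serum amyloid, measured 7.74, 8.77 and 7.72 in fed and 5.13, 4.68 and 5.32 in starved KO mice, a difference of -3.03 (SE 1.17, adjusted p = 0.397). Saa2 stood 3.40 lower and Orm2 2.90 lower, also with groups apart. The SE of these genes comes from all 4 groups, and the WT starved mice ranged from 4.95 to 11.36 in Saa1. Among complement genes C9, part of the membrane attack complex, fell by 1.22 and was called in 0 of the fits that left out a KO mouse. Of 26 interferon-stimulated genes 0 passed and the median was -0.32. The neutrophil, Kupffer cell and lymphocyte marker lists had 0 calls, with mean levels per array that overlapped between fed and starved mice for Kupffer cells (8.99 to 9.05 and 8.97 to 9.07) and neutrophils (5.45 to 5.56 and 5.35 to 5.50). Their part in the acute phase values was not tested.

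Single genes of matrix and stellate cells fell in starved KO liver. Postn, a matrix protein, fell from 9.50, 9.25 and 9.11 to 7.37, 7.58 and 7.40 (difference -1.83, SE 0.28, adjusted p = 0.0115). The groups lay more than 1.5 log2 units apart. Of 12 stellate cell markers 1 was called, where 1.02% of all genes were. This was Pdgfrb, the growth factor receptor of stellate cells, which fell by 0.53, from 7.59, 7.52 and 7.56 to 7.03, 7.02 and 7.04. The list median was -0.18. The mean of the list per array was 8.23 to 8.58 in fed and 8.15 to 8.24 in starved mice, so the groups overlapped slightly. The stellate marker Lrat, which stores vitamin A as ester, differed by -0.14 and the collagen Col1a1 by -0.09. Col14a1 and Efemp1, both matrix genes chosen here after their values were seen, differed by -0.81 and -1.20. Efemp1 held with any mouse left out, while Postn was lost without F5, S5, S6 or S7, and Pdgfrb and Alas2 were called in 0 of the 6 fits. Alas2, the heme synthesis enzyme of red cell precursors, fell by 0.96 in a list of 11 red cell markers whose median was 0.30. The globin genes Hbb-b1 and Hba-a1 differed by 0.30 and 0.49. Whether cell numbers contributed was not tested.

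Other genes with a large change belonged to no list. Serpina4-ps1, a serpin pseudogene, was lost without F5 and had the deepest fall of all genes called, from 11.69, 11.34 and 10.04 to 6.54, 7.56 and 6.77 (difference -4.07, SE 0.57, adjusted p = 0.00815). Kcnt2, a sodium-activated potassium channel, went from 7.55, 8.49 and 7.12 to 4.92, 4.86 and 4.92 (difference -2.82, SE 0.40, adjusted p = 0.00873). Its starved values were near the dim end of the scale and almost equal. Rab30, a small GTPase of the Golgi, rose by 2.87, and Defb1, an antimicrobial defensin, by 2.85. Eif4ebp3, an inhibitor of translation initiation, rose by 2.37. Gpcpd1, a glycerophosphocholine phosphodiesterase, rose by 2.23 with starved values of 11.67, 11.29 and 11.07 against 9.17, 9.06 and 9.11. Rab30 and Gpcpd1 held with any mouse left out, Kcnt2 was lost without S6, Defb1 without S5 or S6, and Eif4ebp3 was called only without S7. The probe set named Mir122a covers the gene of miR-122, the main microRNA of hepatocytes. It fell from 8.21, 8.62 and 7.99 to 5.95, 6.57 and 6.09 (difference -2.07, SE 0.23, adjusted p = 0.00232), with any mouse left out as well. Whether the probes read the precursor or the mature microRNA is not known here.

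The next genes were chosen after their values were seen. The adrenergic receptor Adra1b fell by 1.15 and the vasopressin receptor Avpr1a by 1.31, and the adenosine receptor Adora1 rose by 0.92. Txnip and Arrdc4, related arrestin-like proteins that limit glucose uptake, rose by 1.47 and 1.17. Arrdc4 went from 7.46, 7.40 and 7.45 to 8.86, 8.53 and 8.44 and held with any mouse left out. Slc25a47, a mitochondrial carrier of hepatocytes, rose by 1.70, from 11.13, 11.06 and 10.75 to 12.53, 12.81 and 12.70, and St3gal5, which makes the ganglioside GM3, by 1.93. Both held with any mouse left out. Rbm3, an RNA-binding protein known from cold-exposed cells, rose by 1.55, from 10.38, 9.68 and 10.78 to 12.10, 11.69 and 11.71. Of the fits that left out 1 KO mouse, only that without F8 called it. Dbi, which binds acyl-CoA esters, fell by 0.53 from the high fed values of 13.41, 13.27 and 13.40, and it was called in 0 of those fits.

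The same test called 292 of 20719 genes in WT liver (1.41%), and 118 genes were called in both genotypes, which is 55.7% of the KO calls and 40.4% of the WT calls. All 212 genes called in KO had the same sign in WT, against 67.5% of all genes. Across all genes the differences of the genotypes, which share no arrays, had a Pearson r of 0.73 and a Spearman rho of 0.57. Genes are not independent replicates. Of the 212, 161 differed more in KO than in WT, as can follow from choosing them in KO. Their median size was 1.13 in KO and 0.92 in WT, and the genes called in WT had medians of 0.97 in WT and 0.77 in KO.

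**Figure D4:**
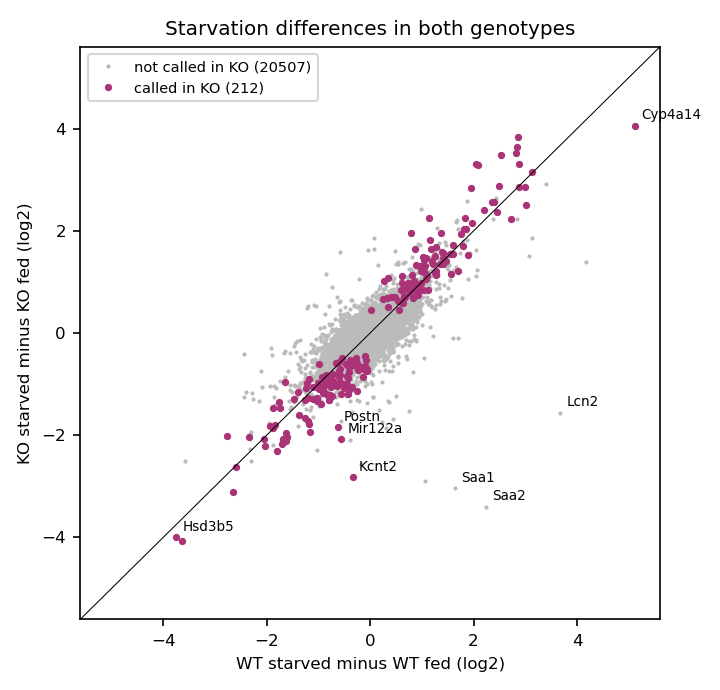
Difference between starved and fed liver (log2) in KO mice (vertical axis) against WT mice (horizontal axis), 1 point per gene, with the 212 genes called in KO in purple and the line of equal differences in black. The called genes follow the line, and Lcn2, Saa1, Saa2 and Kcnt2 lie to the lower right of it.

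The interaction, the KO minus the WT response, was called for 0 of 20719 genes (0%) by limma, and for 106 with array weights. At an unadjusted p under 0.05 there were 422 genes, 2.04% of those tested. That share is below the one this threshold would be expected to give with no interaction in any gene. Of the 212 genes called in KO, 31 (14.6%) had an unadjusted interaction p under 0.05 and 12 had one under 0.01. The KO difference that chose these genes is a term of the interaction, so nothing is read from that share. The median 95% confidence interval of the interaction, without adjustment, reached 0.46 to either side. Calls needed adjustment over all genes, and even the interaction of -5.24 in Lcn2 did not pass. Differences between the genotypes well above 0.46 could therefore also be missed.

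The smallest interaction p belonged to Lcn2, a siderophore-binding protein of the acute phase. It measured 10.77, 11.71 and 10.32 in fed KO mice and 9.33, 9.50 and 9.29 in starved KO mice. In WT it was 8.35, 8.70 and 8.27 in fed and 12.49, 10.64 and 13.23 in starved mice. The groups were apart in both genotypes and in opposite directions, and the limma interaction was -5.24 (SE 0.75, adjusted p = 0.409). The difference in KO by itself did not pass (difference -1.56, adjusted p = 0.284). Fgl1, a secreted fibrinogen-like protein, was 12.22, 12.69 and 11.70 in fed and 12.07, 12.22 and 12.05 in starved KO mice, which overlapped, while it rose by 1.69 in WT (interaction -1.78). Spc25, a kinetochore protein, was 6.36, 6.13 and 6.21 in fed and 6.37, 6.51 and 6.60 in starved KO mice, and it fell by 0.60 in WT (interaction 0.86). Arv1, a lipid-handling protein of the endoplasmic reticulum, differed by 0.10 in KO and rose by 0.78 in WT (interaction -0.67).

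In Mir122a, Kcnt2 and Postn the fed KO mice stood apart from the other 9 mice. Mir122a was 7.49, 6.97 and 6.86 in fed WT and 6.65, 6.24 and 6.74 in starved WT mice, all below the fed KO values of 8.21, 8.62 and 7.99. The WT difference was -0.56 and the interaction -1.51 (SE 0.32, unadjusted p = 0.000628). Kcnt2 was 5.43, 6.58 and 5.29 in fed and 6.07, 4.92 and 5.29 in starved WT mice, against 7.12 to 8.49 in fed KO mice, with an interaction of -2.48. Postn was 7.26, 7.92 and 7.93 in fed WT mice, against 9.11 to 9.50 in fed KO mice, with an interaction of -1.21. The endoplasmic reticulum gene Derl3, a factor of protein retrotranslocation, was 7.70, 7.56 and 7.68 in fed WT, 7.34, 9.07 and 7.46 in starved WT and 8.91, 9.94 and 9.63 in fed KO mice, so a starved WT mouse reached the fed KO values. It stood 1.86 lower in starved KO mice without passing (adjusted p = 0.0652, interaction -2.17). These interactions did not pass after adjustment.

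**Figure D5:**
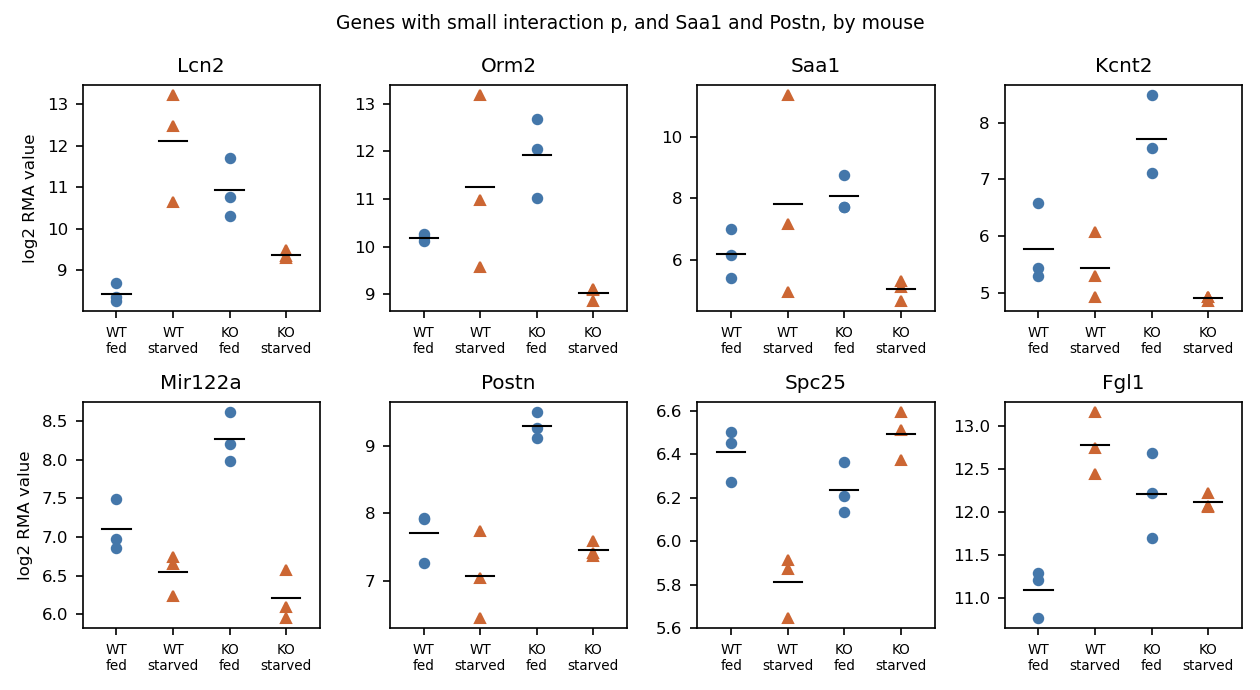
Log2 RMA values (vertical axis, its own scale in each panel) of 8 genes in the 4 groups, 1 marker per mouse, circles fed and triangles starved, with the group mean as a black line. The fed KO mice have the highest group mean in Orm2, Kcnt2, Mir122a and Postn, and Lcn2 moves in opposite directions in WT and KO.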

How the data were processed

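RNA from the livers of 12 mice was hybridised to Affymetrix whole-transcript arrays, 1 array per mouse. The authors deposited log2 expression values made with RMA (background correction, quantile normalization and summary of probes), and limma and oligo were also named, per the submitters' processing notes. The array model, the tool versions and the build are not given in the sources used here. Both deposited tables held the same values in all 347328 cells. Of 28944 lines, 5132 had no symbol and were left out. Where a symbol had several lines (1683 symbols), its brightest line by mean was kept, which left 20719 genes.

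Groups were taken from the labels. Tests used limma 3.58.1 in R 4.3.3 (lmFit, eBayes, 4 group means in 1 fit, equal weights), with Benjamini-Hochberg adjustment over all genes and calls under 0.05. The contrasts were starved minus fed in KO mice, in WT mice, and their difference. A group is 3 mice, which limits the precision. The median SE was 0.15, and the median 95% interval, without adjustment, reached 0.33 to either side. After quantile normalization each difference is relative to the rest of the array.

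The comparison, the 62 gene lists (52 pathway and 10 marker lists, 1364 of 1386 entries measured) and the tests were chosen with earlier results of these data known. Named genes were, among called genes with groups apart, the 20 with the largest rise and the 20 with the deepest fall, without predicted genes and large families, up to 6 called members of each list by smallest adjusted p, the 5 smallest interaction p-values and Lamp2, with list members by value. Some genes that this rule names are not reported here by name, and list counts include them. Alternatives changed 1 choice at a time: the choice of lines, filters on dim genes, scaling, weights, eBayes options, the arrays fitted, a block, a 1.5-fold limit, a covariate for the spread of an array, and leaving out each array. Leaving out F6 and S5 together and a small nucleolar RNA covariate were chosen after seeing the data. RefSeq accessions matched 19458 genes, and deposited symbols are printed. Plots used Python 3.11.15 and matplotlib 3.10.9.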

Additional observations from a re-analysis of the deposited data

Results flagged for a closer look

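Among the 101 named genes, Lcn2 and Spc25 were flagged. In both, every starved mouse lay on one side of every fed mouse in KO liver and on the other side in WT liver. How many of all genes do so was not counted. The gap of Spc25 in KO was narrow, with a highest fed value of 6.364 and a lowest starved value of 6.375. For Lcn2 the KO minus the WT response was -5.24 (SE 0.75). Starved minus fed it differed by -1.56 in KO, which did not pass, and it rose by 3.68 in WT. For Spc25, a low and narrow signal between 5.65 and 6.60 in all 12 mice, the interaction was 0.86 (SE 0.16). It stood 0.26 higher in starved KO mice and fell by 0.60 in WT. Neither interaction passed over all genes by limma (adjusted p of 0.409 for Lcn2 and 1 for Spc25), and both genes were picked by these values.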

How the results depend on the processing

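The 212 genes called in KO liver kept their direction under all 27 alternatives in which they were tested. Their number did not hold. Against 101 higher and 111 lower it was 7639 with array weights (3419 and 4220), which ranged from 0.206 to 6.14, 880 with the SD of each array as a covariate (431 and 449, all 212 among them) and 357 with only the 6 KO arrays fitted (190 and 167). With the small nucleolar RNA covariate, added after seeing the data, it was 749 (337 and 412), and without F6 and S5 together, also added later, 73 (44 and 29). Leaving out 1 array gave 45 to 344 calls (24 to 172 higher, 20 to 172 lower), the fewest without KO fed F5 and the most without WT starved replicate 3. The WT count of 292 was 5600 with array weights, 1133 with the SD covariate, 752 with the small nucleolar RNA covariate and 64 to 659 with 1 array left out. It was 64 without WT starved S4, 78 without WT fed F4, 107 without WT fed F2, 159 without WT starved S3, 151 without KO starved S7, 154 without KO starved S6, 192 without KO fed F5 and 659 without WT starved replicate 3. The interaction count of 0 was 106 with array weights and 0 to 1 with 1 array left out, 1 without WT starved S4. Why the counts moved was not tested.

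The numbers in the sample titles were not taken as pairs. Deviations from the group means correlated at 0.454 for F5 and S5, 0.532 for F6 and S6 and -0.172 for WT F4 and S4. With the number as a replicate block the counts were 224 in KO, 300 in WT and 0 for the interaction. The correlation within blocks was 0.0226 in that fit. The number 3 joins WT starved S3 and WT starved replicate 3, of the same group, so the fit does not test fed and starved pairs alone. Of 2723 values of named genes under the alternatives, 2235 kept their side of the threshold, 486 lost it, 2 gained it and 0 reversed. Of 1611 list medians 104 moved beyond the spread between replicates. With 3 mice a group, the smallest difference called in KO was 0.45 on the log2 scale. Calls needed adjustment over all genes, so larger changes could also be missed.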
